A study of Mus musculus with 6 samples.

Results

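Formyl peptide receptors are G protein-coupled receptors that phagocytes use to sense N-formylated peptides released by bacteria and damaged mitochondria. In mice some members of the family are made instead by sensory neurons of the vomeronasal organ (VNO), the chemosensory organ in the nasal septum, where a neuron makes one such receptor in place of a V1R or V2R pheromone receptor. Fpr-rs3, Fpr-rs4, Fpr-rs6 and Fpr-rs7 are known from apical VNO neurons, which signal through the G protein subunit Gnai2. Basal neurons signal through Gnao1 and mostly make V2Rs. Fpr1 and Fpr2 are known from neutrophils and macrophages. The receptors were taken by gene symbol, as every probe set annotated to a single gene whose symbol begins with Fpr and a digit or with Fpr-rs. This gave 4 genes, each with 1 probe set, of 22180 genes in all: Fpr-rs3, Fpr-rs4, Fpr-rs6 and Fpr2. Other Fpr genes of the RefSeq gene table, Fpr1 and Fpr-rs7 among them, were not analysed here.

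Total RNA was taken from VNOs of AP-2e null mice (3 samples) and of wild-type mice (3 samples), both at postnatal day 17, and hybridised to 1 Affymetrix whole-transcript array per sample. AP-2e is the transcription factor encoded by Tfap2e, and the stated purpose was a direct comparison of the genotypes. The labels do not describe the null allele, the sex of the animals or how many animals a sample holds. Values are log2 signals normalised by the authors, so a difference of 1 is a doubling, and the number of arrays limits the precision. The samples were whole organs, so fewer cells of a type and less RNA per cell cannot be told apart. The median log2 signal lay between 4.997 and 5.079 on every array, and pairs of arrays correlated across probe sets with r between 0.971 and 0.985. Genes used as neuron markers had mean signals above the median of every array in both genotypes. Omp averaged 9.70 in AP-2e null and 10.11 in wild-type VNOs. Gnai2 averaged 10.77 in AP-2e null and 10.66 in wild-type VNOs. Gnao1 averaged 9.86 in AP-2e null and 10.53 in wild-type VNOs. Gnai2 is also a gene of phagocyte signalling, so its signal need not come from neurons alone. Without detection calls these means give signal levels and not presence. The Tfap2e signal averaged 6.03 ± 0.06 in AP-2e null and 6.71 ± 0.23 in wild-type VNOs (SD, n = 3 each). How its probes sit against the null allele is unknown, so this signal is only a limited check of the labels.

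All Fpr genes of the gene table lie on chromosome 17. Their RefSeq windows (250 bases before to 50 after the annotated gene start, build GRCm38.p6) show how close the vomeronasal members are to each other, which bears on what a probe set for 1 of them can measure. For Fpr-rs3, Fpr-rs4, Fpr-rs6 and Fpr-rs7 the annotated gene starts at the start codon itself, so the window holds the first 50 coding bases. These are printed 5′ to 3′ on the coding strand, with capitals at the bases that differ from Fpr-rs6.
Fpr-rs6: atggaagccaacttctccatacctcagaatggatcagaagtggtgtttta
Fpr-rs7: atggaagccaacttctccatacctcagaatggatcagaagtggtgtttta
Fpr-rs3: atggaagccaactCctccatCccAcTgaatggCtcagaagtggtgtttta
Fpr-rs4: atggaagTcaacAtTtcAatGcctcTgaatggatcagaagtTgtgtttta
The Fpr-rs6 stretch is chr17:20183048-20183097 on the minus strand, that of Fpr-rs7 is chr17:20114177-20114226 on the minus strand, that of Fpr-rs3 is chr17:20624828-20624877 on the minus strand, and that of Fpr-rs4 is chr17:18021733-18021782 on the plus strand. Fpr-rs7 differed from Fpr-rs6 at 0 of these 50 bases, Fpr-rs3 at 5 and Fpr-rs4 at 7. Over the whole windows, aligned end to end, Fpr-rs6 and Fpr-rs7 were 90.7% identical. Fpr-rs3 and Fpr-rs6 were 71.2% identical, Fpr-rs4 and Fpr-rs6 71.7%, and Fpr-rs6 and Fpr2 44.0%. The sequences of the array's probes were not used here, so the part of Fpr-rs7 RNA in the signal annotated to Fpr-rs6 is not known, and the values of both Fpr-rs6 and its relatives are uncertain in that respect.

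The 3 measured vomeronasal members also share exact runs of sequence before the start codon, though identity was not computed for that part alone. Their complete windows are shown because they hold both the longest run that all 3 share exactly and the start of the receptor. Shorter shared runs are not marked. Capitals mark that run, ATTGTTGAAA, which begins at position 222 of each window, and the start codon.
Fpr-rs3: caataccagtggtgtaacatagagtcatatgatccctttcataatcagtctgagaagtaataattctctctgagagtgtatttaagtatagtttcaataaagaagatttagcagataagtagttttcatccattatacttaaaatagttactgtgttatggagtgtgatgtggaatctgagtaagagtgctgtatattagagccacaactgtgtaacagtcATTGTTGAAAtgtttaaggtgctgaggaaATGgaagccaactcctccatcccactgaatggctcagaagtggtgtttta
Fpr-rs4: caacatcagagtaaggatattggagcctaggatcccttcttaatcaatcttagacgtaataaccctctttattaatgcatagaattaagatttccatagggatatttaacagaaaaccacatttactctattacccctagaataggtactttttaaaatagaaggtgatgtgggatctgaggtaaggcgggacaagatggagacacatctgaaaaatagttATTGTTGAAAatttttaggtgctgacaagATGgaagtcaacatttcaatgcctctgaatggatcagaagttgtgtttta
Fpr-rs6: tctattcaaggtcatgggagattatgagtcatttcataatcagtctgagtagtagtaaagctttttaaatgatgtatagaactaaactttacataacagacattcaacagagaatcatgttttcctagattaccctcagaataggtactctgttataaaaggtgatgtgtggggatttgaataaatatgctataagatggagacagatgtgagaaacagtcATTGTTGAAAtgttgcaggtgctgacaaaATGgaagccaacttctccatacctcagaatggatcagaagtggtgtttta
The windows are chr17:20624828-20625127 (minus strand) for Fpr-rs3, chr17:18021483-18021782 (plus strand) for Fpr-rs4 and chr17:20183048-20183347 (minus strand) for Fpr-rs6. The AP-2 motif GCCNNNGGC, which reads the same on both strands, was in 0 of the 7 Fpr windows, in 9 of 117 V2R windows and in 16.6% of the 32851 windows of all genes. Since the gene models of these Fpr-rs genes begin at the start codon, their windows are not necessarily promoters, and the count describes these letters in these windows and nothing further.

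None of the 4 receptor genes differed between AP-2e null and wild-type VNOs past the threshold, a Benjamini-Hochberg adjusted p under 0.05 over all 22180 genes in limma. The count was 0 of 4 in limma and 0 of 4 in a plain test per gene, and 0 of 4 had an unadjusted p under 0.05 in either. Over all genes 0.225% passed in limma (0.216% lower and 0.00902% higher in AP-2e null VNOs), and 4.4% had an unadjusted p under 0.05. The genotypes overlapped for each of the 4 genes, where they did not overlap for 7.06% of all genes. In AP-2e null VNOs the mean was higher for 3 of the 4, against 49.7% of all genes, and the median difference of the 4 genes was 0.33, against 0.00 over all genes.

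**Figure D1:**
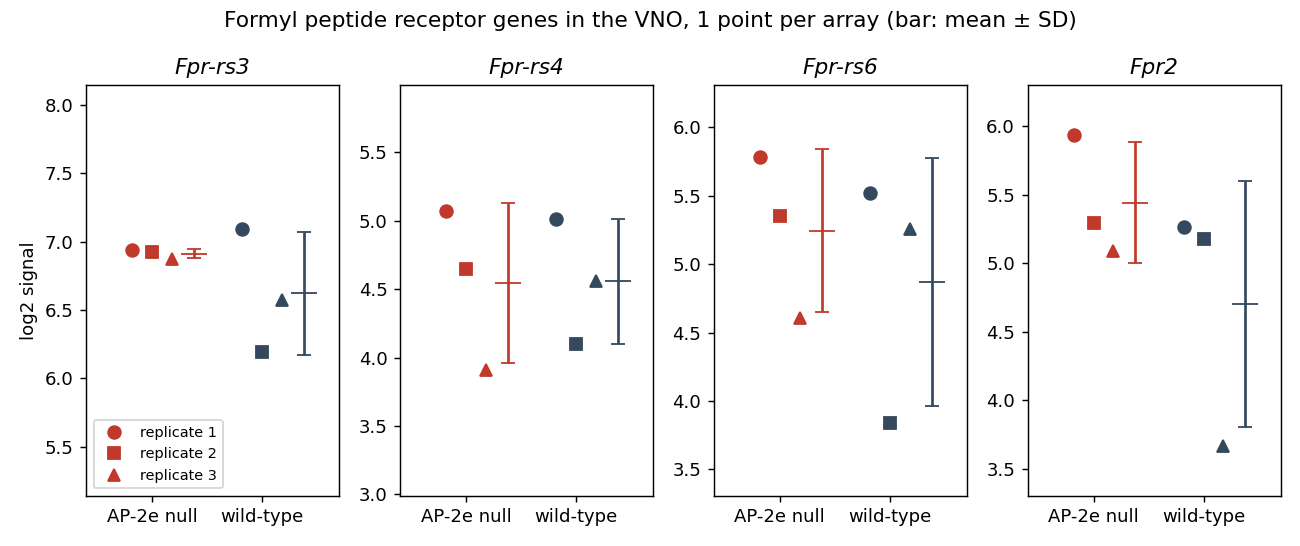
Log2 signal of the 4 formyl peptide receptor genes, each panel with AP-2e null arrays left and wild-type arrays right, 1 point per array (marker shape gives the replicate number) and the mean ± SD beside them. Each panel has its own axis of equal span, and the genotypes overlap in all 4, with the AP-2e null values of Fpr-rs3 between 6.87 and 6.94.

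Fpr-rs3, a receptor of apical neurons, had log2 signals of 6.94, 6.92 and 6.87 in AP-2e null replicates 1, 2 and 3, against 7.09, 6.19 and 6.58 in wild-type replicates 1, 2 and 3. The AP-2e null values lay close together and inside the wild-type range, whose ends were replicates 2 and 1. The means were 6.91 ± 0.03 in AP-2e null and 6.62 ± 0.45 in wild-type VNOs (SD, n = 3 each), a difference of 0.29 (SE 0.22, adjusted p = 0.873 in limma). Its 95% interval ran from -0.27 to 0.85, so the largest fall inside it was 1.20-fold and the largest rise 1.80-fold. Without wild-type replicate 2 the difference was 0.08, and without wild-type replicate 1 it was 0.53, with an unadjusted p of 0.0124 and an adjusted p of 0.872 in limma.

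Fpr-rs4, also a receptor of apical neurons, had log2 signals of 5.07, 4.65 and 3.91 in AP-2e null replicates 1, 2 and 3, against 5.01, 4.10 and 4.56 in wild-type replicates 1, 2 and 3. Both genotypes spanned nearly the same range, with the lowest value in AP-2e null replicate 3. The means were 4.54 ± 0.59 in AP-2e null and 4.56 ± 0.46 in wild-type VNOs (SD, n = 3 each), a difference of -0.01 with a 95% interval from -0.92 to 0.89 (SE 0.36, adjusted p = 0.999 in limma). The sign turned without AP-2e null replicate 3, where the difference was 0.30, and without wild-type replicate 1, where it was 0.21.

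Fpr-rs6, the third receptor of apical neurons, had log2 signals of 5.78, 5.35 and 4.60 in AP-2e null replicates 1, 2 and 3, against 5.52, 3.84 and 5.26 in wild-type replicates 1, 2 and 3. Wild-type replicate 2 stood apart below all other arrays. The means were 5.24 ± 0.59 in AP-2e null and 4.87 ± 0.91 in wild-type VNOs (SD, n = 3 each), a difference of 0.37 (SE 0.53, 95% interval -0.94 to 1.68, adjusted p = 0.902 in limma). Without wild-type replicate 2 the difference was -0.15.

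Fpr2, the receptor of phagocytes for formylated peptides and for host proteins such as serum amyloid A, had log2 signals of 5.94, 5.29 and 5.09 in AP-2e null replicates 1, 2 and 3, against 5.27, 5.18 and 3.67 in wild-type replicates 1, 2 and 3. Wild-type replicate 3 was far below the other arrays, and the remaining wild-type values lay between the lowest and the middle AP-2e null value. The means were 5.44 ± 0.44 in AP-2e null and 4.70 ± 0.90 in wild-type VNOs (SD, n = 3 each), a difference of 0.74 (SE 0.49, 95% interval -0.48 to 1.95, adjusted p = 0.873 in limma). Without wild-type replicate 3 the difference was 0.22. Wild-type replicate 3 also had the lowest mean correlation with the other arrays (r = 0.973) and the lowest array weight in limma (0.49). With array weights the Fpr2 difference was 0.42. Whether the low Fpr2 value belongs to the gene or to the array was not tested.

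Exact 2-sided permutation tests of the single genes gave p = 0.4 for Fpr-rs3 and Fpr2, 0.6 for Fpr-rs6 and 1 for Fpr-rs4, where 0.1 is the smallest p that 3 arrays against 3 allow. The 95% interval of each of the 4 differences included 0, and for Fpr-rs4 and Fpr-rs6 the sign depended on single arrays.

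**Figure D2:**
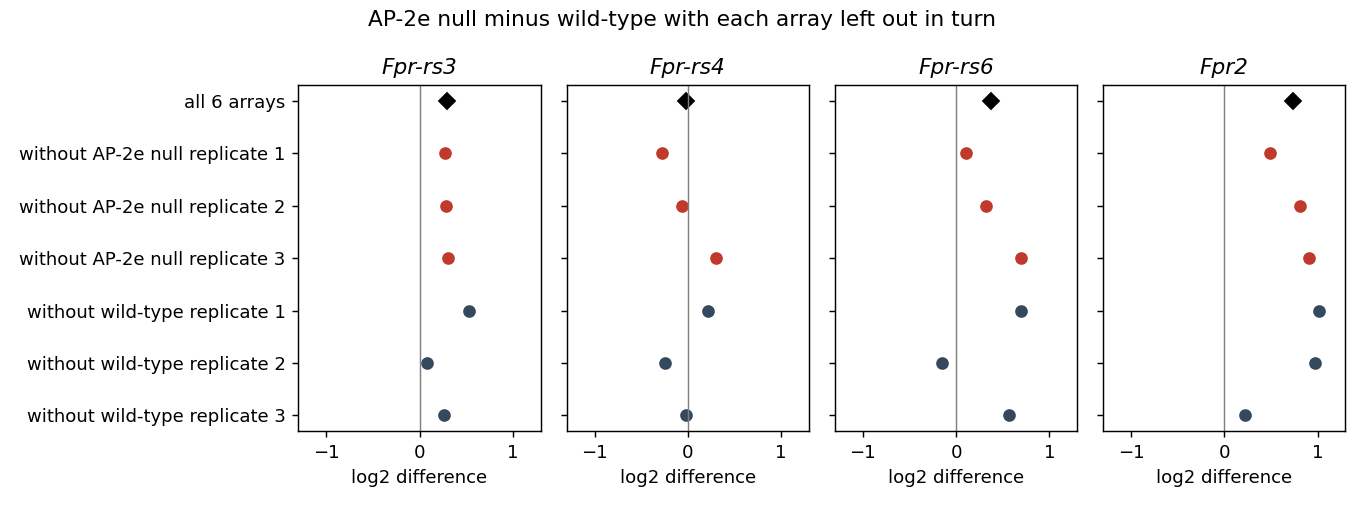
Log2 difference, AP-2e null minus wild-type, of each receptor gene with all 6 arrays (black diamond) and with 1 array left out (red circles for AP-2e null arrays, dark blue circles for wild-type arrays). Fpr-rs3 stays between 0.08 and 0.53 and Fpr2 between 0.22 and 1.02, while Fpr-rs4 and Fpr-rs6 have values on both sides of 0.

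V2R genes that surround the receptors in the genome were lower in AP-2e null VNOs. In the gene table the Fpr genes stand on both sides of and within a long row of V2R genes, which code for the receptors of basal neurons. From Fpr1 to Fpr-rs3, the outermost Fpr genes, the table lists 31 protein-coding genes, of which 4 Fpr, 20 V2R and 2 V1R genes were measured, a stretch chosen after its values were seen. All 20 V2R genes had lower means in AP-2e null VNOs (50.3% of all genes had) and 8 fell past the threshold, where 0.216% of all genes did. With a single array left out 1 to 3 of the 20 passed, with the replicate number as a block 3 and in the plain test 0, and all 20 means stayed lower in these fits. The V2R family as a whole was similar, with lower means for 102 of 109 genes, 42 that fell and a median difference of -1.78. The median difference was -2.24 for these 20 genes and 0.33 for the 4 Fpr genes beside them. Both V1R genes had a higher AP-2e null mean, Vmn1r224 by 0.63 and Vmn1r225 by 0.15, and neither passed.

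**Figure D3:**
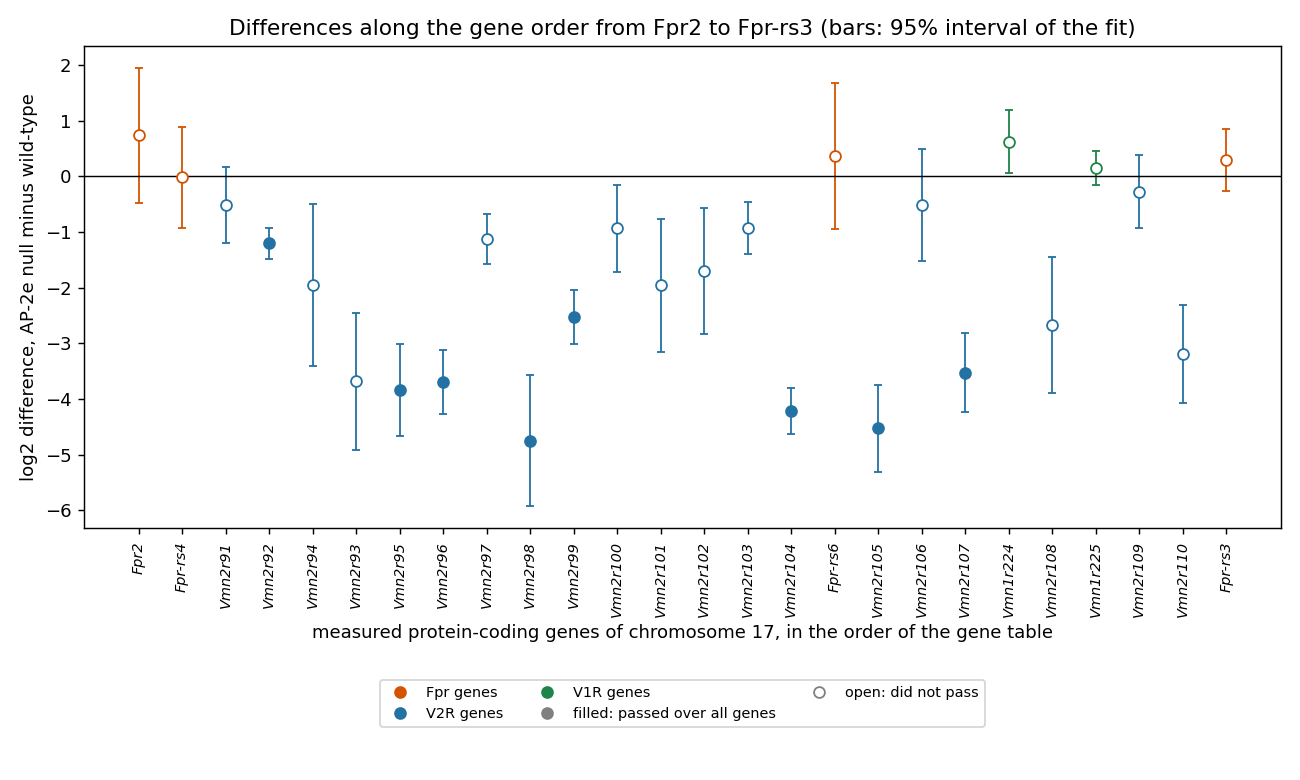
Log2 difference, AP-2e null minus wild-type, with its 95% interval for the measured protein-coding genes of chromosome 17 in gene table order (distances are not drawn), orange for Fpr, blue for V2R and green for V1R genes, with filled points for genes past the threshold. The 4 Fpr genes lie between -0.01 and 0.74, and the 20 V2R genes among them between -4.75 and -0.28.

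Fpr-rs6 stands in the middle of that row, with the V2R genes Vmn2r103 and Vmn2r104 as the nearest measured genes before it and Vmn2r105 and Vmn2r106 after it. Vmn2r104 had log2 signals of 2.60, 3.05 and 2.72 on AP-2e null arrays, against 6.85, 6.90 and 7.27 on wild-type arrays. It fell 18.6-fold (adjusted p = 0.00111 in limma) and passed whichever array was left out. In AP-2e null VNOs it averaged 2.79, below the lower quartile of all array values (3.62), and with no detection calls this fold may be an understatement. Vmn2r105 had 4.771, 3.806 and 4.944 on AP-2e null arrays, against 9.225, 9.001 and 8.870 on wild-type arrays. It fell 23.0-fold (adjusted p = 0.00996 in limma), and passed in only 1 of the 6 fits with an array left out. Vmn2r103 at -0.93 and Vmn2r106 at -0.51 did not pass. Their wild-type means, 2.73 and 3.12, were already below that lower quartile, which limits the fall that could show. In the same arrays the groups of Fpr-rs6 overlapped, and the lower end of its 95% interval, -0.94, corresponds to a 1.92-fold fall.

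Fpr-rs3 has Vmn2r109 and Vmn2r110 before it and the V1R genes Vmn1r226 and Vmn1r227 after it. Vmn2r110 had log2 signals of 3.03, 3.14 and 4.34 on AP-2e null arrays, against 6.65, 6.75 and 6.70 on wild-type arrays, a difference of -3.20 that missed the threshold (adjusted p = 0.0593 in limma), and it passed in 1 of the 6 fits with an array left out. Vmn2r109 differed by -0.28, Vmn1r226 by 0.25 and Vmn1r227 by 0.47, and none of these passed. Fpr-rs3 itself, at 0.29, lay between the differences of the V1R genes that follow it.

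Fpr2 and Fpr-rs4 stand at the other end, next to each other among the measured genes. Before Fpr2 come Spaca6, a gene of sperm fusion, at 0.31 and Has1, a hyaluronan synthase, at -0.26, neither of which passed. After Fpr-rs4 come Vmn2r91 at -0.51, which did not pass, and Vmn2r92. Vmn2r92 had log2 signals of 7.31, 7.16 and 7.05 on AP-2e null arrays, against 8.56, 8.23 and 8.33 on wild-type arrays. It fell 2.29-fold (adjusted p = 0.0314 in limma) and passed in 0 of the 6 fits with an array left out.

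The receptors and the V2R genes among their 4 nearest measured genes stand side by side as follows, with no test, since these neighbours were set as a comparison after their values were seen. Fpr-rs6 differed by 0.37, and the mean of its 4 V2R neighbours was 2.93 ± 0.13 in AP-2e null and 5.47 ± 0.25 in wild-type VNOs (SD, n = 3 each), a difference of -2.54. Fpr-rs3 differed by 0.29, and the mean of its 2 V2R neighbours by -1.74. Fpr-rs4 differed by -0.01, and the mean of its 2 V2R neighbours by -0.86. Fpr2 differed by 0.74, and its single V2R neighbour, Vmn2r91, by -0.51. In wild-type VNOs Vmn2r91 averaged 3.75, near the lower quartile of all array values (3.62). Vmn2r103 and Vmn2r106 lay below that quartile, so the falls of these neighbours may be understated.

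Array by array, Fpr-rs3 and Fpr-rs6 were lowest where V1R genes were lowest. Wild-type replicate 2 had the lowest signal of all 6 arrays for Fpr-rs3 and Fpr-rs6, and the second lowest for Fpr-rs4, which was lowest on AP-2e null replicate 3. The mean over 176 V1R genes, whose products are the pheromone receptors of apical neurons, was 6.15, 6.01 and 5.92 on AP-2e null arrays, against 5.99, 5.43 and 5.92 on wild-type arrays, and was lowest on the same array. The mean over 109 V2R genes was 4.58, 4.43 and 4.42 on AP-2e null arrays, against 6.54, 6.39 and 6.78 on wild-type arrays, and separated the genotypes. Of the 176 V1R genes 80.7% had the higher mean in AP-2e null organs (49.7% of all genes had) and 0 passed in limma (27, or 15.3%, had an unadjusted p under 0.05, against 4.4% of all genes), and their median difference was 0.22. The part of an array's V1R level in the values of the Fpr-rs genes was not tested.

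**Figure D4:**
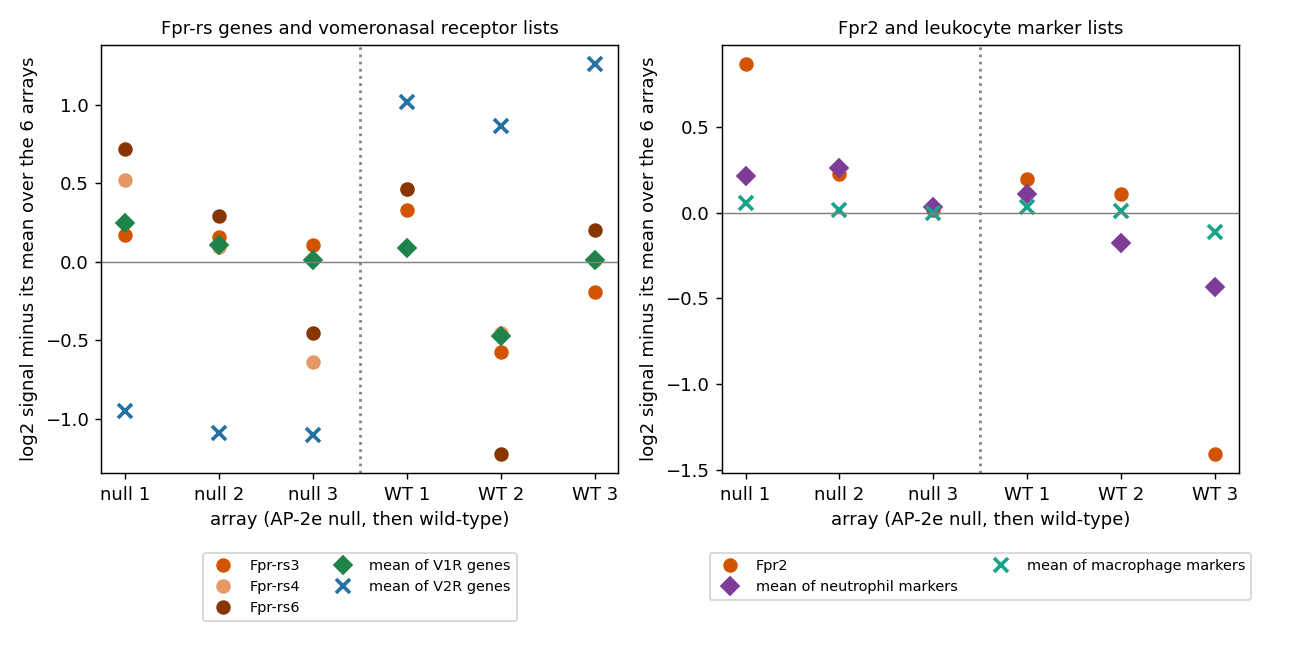
Log2 signal on each array minus the 6-array mean of the same gene or list, with AP-2e null arrays left of the dotted line and wild-type arrays right of it. Left, the 3 Fpr-rs genes and the V1R mean are lowest or near lowest on wild-type replicate 2, while the V2R mean separates the genotypes. Right, Fpr2 and the means of 15 neutrophil and 13 macrophage markers are lowest on wild-type replicate 3, which does not hold for every single marker.

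Markers of the apical and basal neurons were measured on the same arrays, where 4.4% of all genes had an unadjusted p under 0.05. Of 7 apical markers other than receptors, 0 passed in limma, 3 had an unadjusted p under 0.05, and the median difference was 0.08. Gnai2, the G protein subunit of apical neurons, differed by 0.11, its partner subunit Gng2 by 0.36 and the transcription factor Meis2 by 0.26. The guidance receptor Nrp2 differed by -0.06, the adhesion genes Ncam2 and Kirrel2 by 0.08 and -0.35, and the phosphodiesterase Pde4a by -0.03. Of 5 basal markers 0 passed in limma, 4 had an unadjusted p under 0.05, and the median difference was -0.50. Gnao1, the subunit of basal neurons, differed by -0.68 (adjusted p = 0.331 in limma), the chaperone gene Calr4 by -1.10 (adjusted p = 0.141), the adhesion gene Kirrel3 and the guidance receptor gene Robo2 by -0.50 and -0.49, and Gng8 by 0.06. Of 8 genes for signal transduction and receptor handling 0 passed, 2 had an unadjusted p under 0.05 and the median difference was -0.02. Rtp1, a receptor-handling gene not known here to serve the Fpr genes, differed by 0.44. The chloride channel gene Ano2 differed by -0.40 and the maturity marker Omp by -0.41.

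Leukocytes, a known source of Fpr2, were followed by marker lists, to be read beside the 49.7% of all genes with a higher AP-2e null mean and the 4.4% with an unadjusted p under 0.05. Of 15 neutrophil markers 14 had the higher mean in AP-2e null organs, 0 passed in limma and 2 had an unadjusted p under 0.05, with a median difference of 0.28. The mean level of the list was 8.21, 8.25 and 8.02 on AP-2e null arrays, against 8.10, 7.82 and 7.56 on wild-type arrays, so wild-type replicate 3 was lowest, as for Fpr2. The smallest p were those of the collagenase gene Mmp8 at 0.41 and the cytokine receptor gene Csf3r at 0.27, followed by the granule peroxidase gene Mpo at 0.62. The list mean did not hold for each member. Mmp8 was lowest on wild-type replicate 3, but Csf3r on wild-type replicate 1 and Mpo on wild-type replicate 2. Of 13 macrophage and monocyte markers 8 had higher means, 0 passed, 1 had an unadjusted p under 0.05 and the median difference was 0.10. Their mean level was 7.83, 7.78 and 7.77 on AP-2e null arrays, against 7.80, 7.78 and 7.66 on wild-type arrays. The mannose receptor gene Mrc1 at 0.21, the growth factor receptor gene Csf1r at 0.16 and the chemokine receptor gene Ccr2 at 0.19 led it. Unlike the list mean, Mrc1 and Csf1r were lowest on wild-type replicate 1 and Ccr2 on wild-type replicate 2. The part of leukocyte RNA in the Fpr2 signal was not tested.

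Partners of the receptors were also measured. Of 10 genes whose products give known ligands, 8 were measured, 0 passed in limma and 0 had an unadjusted p under 0.05. Ctsg, a granule protease of neutrophils that attracts phagocytes through the receptor family, though not necessarily a measured member, differed by 0.28. Anxa1, the annexin whose fragments bind Fpr2, differed by -0.22 and Camp, the cathelicidin gene, by 0.46. Camp was lowest on wild-type replicate 3, at 5.40, where Fpr2 was lowest too. Ctsg was lowest on wild-type replicate 2, at 4.75, and Anxa1 on AP-2e null replicate 1, at 10.67. Camp and Ctsg are also in the neutrophil list, so their values are not separate results. Of 20 genes of phagocyte signalling below these receptors, 17 were measured, 0 passed and 2 had an unadjusted p under 0.05, namely Rac2, a small GTPase of the oxidative burst, at 0.39 and Gng2 at 0.36. Ncf4, a subunit of the phagocyte oxidase, followed at 0.21. Gng2 and Gnai2 are also among the apical markers, so their values are not separate results either. Of 13 other leukocyte chemoattractant receptors, 12 were measured, 0 passed and 0 had an unadjusted p under 0.05, with Cx3cr1 at 0.33, Cxcr4 at 0.23 and Ccr2 at 0.19 having the smallest p. Ccr2 is also in the macrophage list. No pathway list held a gene past the threshold over all genes.

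The genes most like a receptor across arrays were found by Pearson correlation over the 6 arrays, for the receptor gene with the highest mean signal and for the one with the smallest p. For Fpr-rs3 they were Hectd3, Sae1, V1ra8, Ddx10 and Rhcg, with r between 0.979 and 0.988. V1ra8 carries an older symbol of the V1R family, and it had 5.91, 5.98 and 5.89 on AP-2e null arrays, against 6.18, 5.15 and 5.41 on wild-type arrays, so it too was lowest on wild-type replicate 2. For Fpr2 they were Zfp572, Ccl27a, Got1l1, Zfp61 and Tspan31, with r between 0.995 and 0.998, and each of these 5 had one identical value on 3 or 4 arrays and its lowest value on wild-type replicate 3. These genes were picked from all other genes by 6 points that share arrays and normalisation, so the list is a description. Repeated identical values are not particular to them, as Ncam2 had 8.08 on every AP-2e null array.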

How the data were processed

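The authors deposited log2 signals, 1 per probe set and array, and the submitters' processing notes name RMA (background correction, quantile normalisation, probe summary) and the Transcriptome Analysis Console, with no versions. Of 41345 probe sets, 23521 named 1 gene, 1814 several and 16010 none, and 0 of the probe sets with several genes named an Fpr gene. The highest-mean probe set per gene was kept (22180 genes). Genotypes came from the sample titles. Differences were tested with limma 3.58.1 in R 4.3.3 (lmFit, eBayes, 2-sided, no covariate), with p adjusted over all genes, and single genes with exact permutation in scipy 1.17.1. The script was tested on simulated data. No detection calls were used. The titles call the samples biological replicates. If a sample pooled animals, p-values measure the spread between such pools.

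Members and lists were chosen with earlier results of these data known. Named were every measured Fpr gene, Tfap2e, the neuron markers, up to 3 genes of each other list by smallest p, neighbours that passed, and 5 genes by likeness. Other genes around the Fpr genes are named after their values were seen. A planned contrast within the Fpr genes and the protein comparison are not reported here. Alternatives were other variance moderation, all probe sets of a gene averaged or tested singly, leaving out the dimmest 30% of genes, centring on the median, cyclic loess, repeated quantile normalisation, array weights, a plain test, a replicate block and each array left out. Same-numbered arrays of the genotypes did not deviate together (correlations 0.04, 0.11 and 0.02 across genes), so the numbers were not taken as pairs. Window sequences are from RefSeq, build GRCm38.p6, and matched 4 of 4 measured Fpr genes; the deposited table names no build, so the gene table gave only names and gene order.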

Additional observations from a re-analysis of the deposited data

How the results depend on the processing

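No Fpr gene passed in any of the 16 alternatives (adjusted p between 0.787 and 1 in limma or the plain test), and Fpr-rs4 was not tested with the dim filter. The differences of Fpr-rs3 (0.08 to 0.53) and Fpr2 (0.22 to 1.02) kept their sign in all of them. With single arrays left out that of Fpr-rs4 lay between -0.28 and 0.30 and that of Fpr-rs6 between -0.15 and 0.70. That of Fpr-rs4 turned to 0.30 without AP-2e null replicate 3 and 0.21 without wild-type replicate 1, and that of Fpr-rs6 to -0.15 without wild-type replicate 2. The number of Fpr genes with a higher mean was between 2 and 4 and their median difference between -0.03 and 0.61. With the replicate block the 4 differences were unchanged, Fpr2 had an unadjusted p of 0.0622 and an adjusted p of 0.895, and 22 genes fell, 0 rose and 3 V2R genes between the Fpr genes passed. No call on an Fpr gene changed with the replicate block. Over all genes 48 fell and 2 rose with all arrays. With the plain test 4 fell, 0 rose and 0 of the 20 V2R genes passed. With a single array left out 17 to 32 fell, 0 to 1 rose and 1 to 3 V2R genes passed. Higher genes numbered 1 with averaged probe sets, with every probe set by itself and with array weights, and 4 with median centring, cyclic loess and repeated quantile normalisation. With the dim filter 9 of the 20 V2R genes were tested, and all 9 had lower means. The causes of these shifts were not tested, and some of these fits also used fewer arrays or genes. The arrays carry no detection calls, so how far the dimmer Fpr signals lie above background is not known.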
